A study of Homo sapiens with 16 samples.

Results

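The kinesin superfamily was followed through the response of 2 human triple-negative breast cancer cell lines to a kinase inhibitor. Its members were taken by name, as every protein-coding row of the count table whose gene symbol begins with KIF and a digit or with KIFC. This gave 43 of 58735 genes. By their known roles, 14 were mitotic kinesins, 17 transport kinesins and 11 kinesins of cilia and other roles. The remaining row, KIF1BP, was matched by its symbol but encodes a kinesin-binding protein and not a motor, so 42 members were kinesins.

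The groups were MDA-MB-231 cells with YES1i, MDA-MB-231 cells with DMSO, SUM159 cells (written SUM159PT in sample titles) with YES1i and SUM159 cells with DMSO, each with 4 libraries, and all cells were wild type per the labels. CH6953755, called YES1i in the labels, blocks the kinase YES1, a relative of Src, and was given at 8 uM and cells were collected after 48 h, as were the cells given the solvent DMSO. The lines were grown in different media, so line and medium cannot be told apart. The series text calls the 4 libraries of a group technical replicates, so every p-value here measures the spread between libraries, which may be technical.

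Kinesins are motor proteins that turn ATP hydrolysis into movement along microtubules or into disassembly of microtubule ends. Mitotic kinesins separate the spindle poles, move chromosomes, trim spindle microtubules and build the midzone for cytokinesis. In cycling cells most of their genes are transcribed around G2 and mitosis. Transport kinesins carry vesicles, mitochondria and other cargo at all stages of the cycle, and others act in cilia, at centrioles or in Hedgehog signalling.

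Polyadenylated RNA was sequenced, and levels are given as CPM, each gene's count relative to the library total on the usual CPM scale, with TMM factors (edgeR's trimmed mean normalization). Levels of different genes are compared only as TPM, which also divides by exon length. Total counts ran from 15876171 to 36261542 per library, and no library stood apart from its group on the first components. Pairs of libraries within a group were also compared by chi-square over degrees of freedom, which grows with count differences and with depth. SUM159 YES1i replicate 2 had 11.3 to 21.7 against its group, whose remaining pairs had 3.77 to 6.16. SUM159 DMSO replicate 1, the deepest library, had 6.92 to 15.9, and the remaining pairs of its group 3.42 to 6.88. The triple-negative label fitted ESR1 and PGR, at 0 to 0.734 CPM, whereas ERBB2 averaged 108 to 118 CPM in the 4 groups. Markers of other cell types were not all low. CD3E was at 0 in all but 1 library, and PTPRC averaged at most 0.380 CPM. VWF reached at most 0.730 CPM, CD14 at most 2.54 CPM and PECAM1 at most 9.26 CPM in any library. COL1A1 ran from 666 to 828 CPM in SUM159 libraries and from 7.85 to 12.1 CPM in MDA-MB-231 libraries. Mitochondrial rRNA took 1.33% ± 0.0502 of counts in MDA-MB-231 YES1i libraries and 0.644% ± 0.0283 in MDA-MB-231 DMSO libraries, and 1.34% ± 0.0977 in SUM159 YES1i libraries and 0.731% ± 0.0749 in SUM159 DMSO libraries (SD, n = 4 each). The part of this shift in the results below was not tested.

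A gene was called when edgeR's quasi-likelihood test gave a Benjamini-Hochberg adjusted p under 0.05 over all 17647 genes tested. Of the 43 members, 36 passed the low-count filter. The 7 that did not were KIF1A, KIF2B, KIF4B, KIF6, KIF12, KIF19 and KIF26A, and KIF19 and KIF26A had no read in any library. Among the 36 tested members, 8 rose and 19 fell with YES1i in MDA-MB-231, where 48.9% of all tested genes were called in either direction, and 4 rose and 19 fell in SUM159, where 51.6% were. None of the rises in MDA-MB-231 reached 2-fold, against 6.31% of all genes, and 1 in SUM159 did, KIF17, against 6.72%.

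Measured per length, the family was less abundant after YES1i in both lines, and most of the loss lay in the mitotic kinesins. In MDA-MB-231 the mitotic kinesins summed to 441 ± 11.3 TPM with YES1i and 1234 ± 33.2 TPM with DMSO (SD, n = 4 each). In SUM159 they summed to 335 ± 14.01 TPM with YES1i and 734 ± 17.4 TPM with DMSO. The transport kinesins summed to 633 ± 21.9 TPM with YES1i and 700.1 ± 19.7 TPM with DMSO in MDA-MB-231, and to 435 ± 4.92 TPM with YES1i and 459 ± 32.1 TPM with DMSO in SUM159. Mitotic kinesins therefore made up 38.5% ± 1.14 of all kinesin TPM with YES1i and 61.2% ± 0.399 with DMSO in MDA-MB-231. In SUM159 their share was 39.3% ± 1.18 with YES1i and 57.1% ± 1.31 with DMSO. The library ranges of this share did not overlap between treatments in either line.

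**Figure D1:**
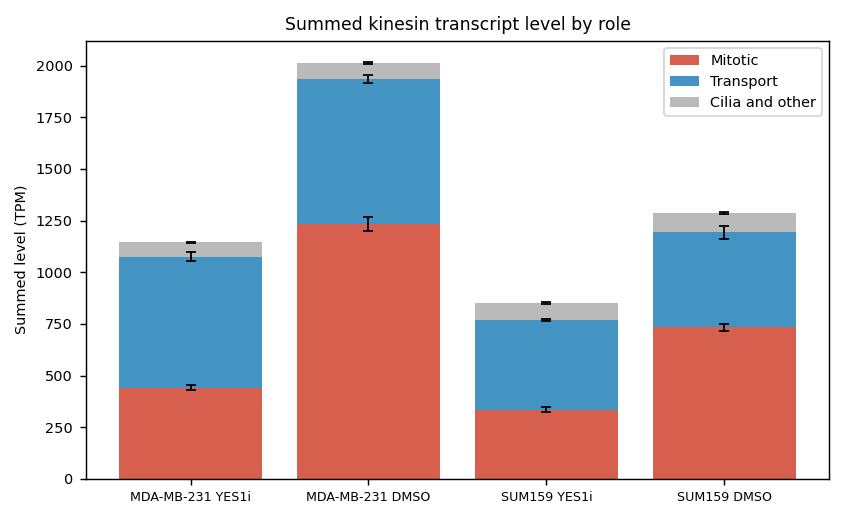
Summed kinesin transcript level (TPM, linear axis) in each group, stacked by role; bars are means of 4 libraries and error bars the SD of each role's sum. The mitotic segment is 441 TPM with YES1i and 1234 TPM with DMSO in MDA-MB-231, and 335 TPM with YES1i and 734 TPM with DMSO in SUM159. The transport segment is 633 TPM with YES1i and 700.1 TPM with DMSO in MDA-MB-231, and 435 TPM with YES1i and 459 TPM with DMSO in SUM159.

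The order of levels within the family changed with it. In MDA-MB-231 with YES1i the leading transcripts were KIF5B at 165 ± 12.2 TPM, KIF1C at 116 ± 1.47 TPM and KIF3B at 86.4 ± 4.66 TPM, all 3 encoding transport motors. KIF3B and the next in order, the mitotic KIFC1 at 84.8 ± 5.14 TPM, did not differ beyond their spread. In MDA-MB-231 with DMSO the order began with KIFC1 at 236 ± 12.6 TPM and KIF5B at 227 ± 9.72 TPM, whose ranges overlapped, followed by the mitotic KIF2C at 174 ± 8.81 TPM. In SUM159, KIF5B led both groups, at 160.5 ± 14.5 TPM with YES1i and 168 ± 7.25 TPM with DMSO, and KIF20A followed, at 65.9 ± 4.04 TPM with YES1i and 138 ± 7.20 TPM with DMSO. With YES1i, KIF20A and the transport motor KIF1C, next at 64.2 ± 5.64 TPM, did not differ beyond their spread.

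All 12 tested mitotic kinesins fell with YES1i in MDA-MB-231, where 22.1% of all tested genes were called lower, and all 12 fell in SUM159, where 26.5% were called lower. In neither line did the YES1i and DMSO libraries overlap for any of the 12, but the share of all tested genes without overlap was not counted. The median log2 fold change of the 12 was -1.40 in MDA-MB-231 (-1.55 to -1.26), against 0.03 over all tested genes. In SUM159 the median was -1.06 (-1.25 to -0.70), against 0.02. The fall reached 2-fold for 12 of 12 in MDA-MB-231, where 3.80% of all genes were called at least 2-fold lower, and for 10 of 12 in SUM159, where 3.20% were. The exceptions in SUM159 were KIF14 and KIF18A. Of the remaining mitotic members, KIF4B, a near-identical intronless copy of KIF4A, had at most 0.319 CPM and KIF2B at most 0.0484 CPM in any library.

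Among the motors that build and hold the bipolar spindle, KIF11, the plus-end motor that pushes spindle poles apart, had 63.2, 66.7, 62.1 and 66.8 CPM in MDA-MB-231 YES1i libraries, against 169, 161, 168 and 172 CPM in MDA-MB-231 DMSO libraries. In SUM159 it had 46.5, 51.5, 51.8 and 44.9 CPM with YES1i, against 108, 97.1, 109 and 106 CPM with DMSO. Every YES1i library lay below every DMSO library, by -1.37 ± 0.06 on the log2 scale in MDA-MB-231 (SE, edgeR adjusted p = 4.1e-18) and -1.11 ± 0.06 in SUM159 (adjusted p = 8.8e-16). KIF15, which can share the pole-separating work of KIF11, averaged 19.3 ± 1.14 CPM with YES1i and 54.8 ± 3.37 CPM with DMSO in MDA-MB-231, and 21.3 ± 4.09 CPM with YES1i and 45.9 ± 2.25 CPM with DMSO in SUM159 (SD, n = 4 each). KIFC1, a minus-end motor that focuses spindle poles and clusters extra centrosomes in cancer cells, averaged 77.3 ± 6.45 CPM with YES1i and 204 ± 9.69 CPM with DMSO in MDA-MB-231, and 40.2 ± 1.90 CPM with YES1i and 95.6 ± 4.28 CPM with DMSO in SUM159. All 3 motors fell in both lines, with log2 fold changes of -1.50 in MDA-MB-231 and -1.10 in SUM159 for KIF15, and of -1.40 in MDA-MB-231 and -1.25 in SUM159 for KIFC1.

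The chromokinesins, which bind chromosome arms and push them toward the equator, fell too. KIF4A had 47.5, 45.5, 54.6 and 53.7 CPM in MDA-MB-231 YES1i libraries, against 138, 146, 142 and 139 CPM in MDA-MB-231 DMSO libraries, and 25.7, 27.4, 31.3 and 26.3 CPM in SUM159 YES1i libraries, against 59.8, 54.3, 55.5 and 56.0 CPM in SUM159 DMSO libraries. The log2 fold changes of KIF4A were -1.49 ± 0.06 and -1.03 ± 0.07 (SE, MDA-MB-231 and SUM159), with no overlap. KIF22 averaged 35.4 ± 3.34 CPM with YES1i and 84.8 ± 2.42 CPM with DMSO in MDA-MB-231, and 43.1 ± 3.25 CPM with YES1i and 102 ± 1.84 CPM with DMSO in SUM159. Its log2 fold changes, -1.26 ± 0.06 and -1.24 ± 0.06, were the closest pair between the lines among the mitotic members.

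The kinesins that shorten or restrain microtubule ends at the spindle are KIF2C, which depolymerizes ends at centromeres and helps correct wrong attachments, KIF18A, which damps chromosome oscillation, and KIF18B, which acts on astral microtubules. KIF18B had 33.5, 34.8, 39.2 and 41.4 CPM in MDA-MB-231 YES1i libraries, against 113, 109.8, 106 and 107 CPM in MDA-MB-231 DMSO libraries. In SUM159 it had 34.8, 37.6, 37.6 and 33.5 CPM with YES1i, against 84.9, 79.1, 85.8 and 80.8 CPM with DMSO. KIF18B was 2.92-fold lower with YES1i in MDA-MB-231, at -1.55 ± 0.06 log2, first among the mitotic members but within the SE of KIF23, at -1.54 ± 0.06 log2. KIF18A had 17.9, 18.0, 15.9 and 17.2 CPM in MDA-MB-231 YES1i libraries, against 41.8, 37.8, 42.3 and 42.7 CPM in MDA-MB-231 DMSO libraries. In SUM159 KIF18A had 11.1, 17.6, 12.99 and 11.4 CPM with YES1i, against 19.1, 22.9, 20.04 and 25.1 CPM with DMSO. It had the smallest mitotic fall in SUM159, -0.70 ± 0.11 log2 or 1.63-fold lower, with 17.6 CPM in the highest YES1i library and 19.1 CPM in the lowest DMSO library. KIF2C averaged 59.4 ± 4.51 CPM with YES1i and 164 ± 7.08 CPM with DMSO in MDA-MB-231 and 45.9 ± 1.99 CPM with YES1i and 95.3 ± 3.97 CPM with DMSO in SUM159.

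The motors of the midzone and cytokinesis made up the last mitotic group. KIF23, the motor subunit of centralspindlin, had 40.9, 42.4, 43.9 and 47.7 CPM in MDA-MB-231 YES1i libraries, against 127, 119, 133 and 129.7 CPM in MDA-MB-231 DMSO libraries, and averaged 45.2 ± 2.94 CPM with YES1i and 95.0 ± 2.05 CPM with DMSO in SUM159. KIF20A, which carries the chromosomal passenger complex with AURKB to the midzone, averaged 69.4 ± 2.75 CPM with YES1i and 174 ± 1.14 CPM with DMSO in MDA-MB-231, and 75.4 ± 5.40 CPM with YES1i and 155 ± 13.02 CPM with DMSO in SUM159. KIF14, which recruits citron kinase, averaged 29.0 ± 2.32 CPM with YES1i and 76.3 ± 1.955 CPM with DMSO in MDA-MB-231, and 22.3 ± 3.69 CPM with YES1i and 42.9 ± 4.73 CPM with DMSO in SUM159. KIF20B, needed late in cytokinesis, averaged 30.6 ± 3.55 CPM with YES1i and 77.9 ± 8.27 CPM with DMSO in MDA-MB-231, and 17.4 ± 4.25 CPM with YES1i and 36.5 ± 5.0 CPM with DMSO in SUM159. All 4 fell in both lines, and the log2 fold changes ran from -1.54 (KIF23) to -1.33 (KIF20A) in MDA-MB-231 and from -1.07 (KIF23) to -0.93 (KIF14) in SUM159. CENPE, a centromere kinesin whose symbol lies outside the naming rule, fell in both lines, with log2 fold changes of -1.36 ± 0.22 in MDA-MB-231 (SE, edgeR adjusted p = 0.00019) and -0.76 ± 0.22 in SUM159 (adjusted p = 0.011), where its libraries overlapped.

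**Figure D2:**
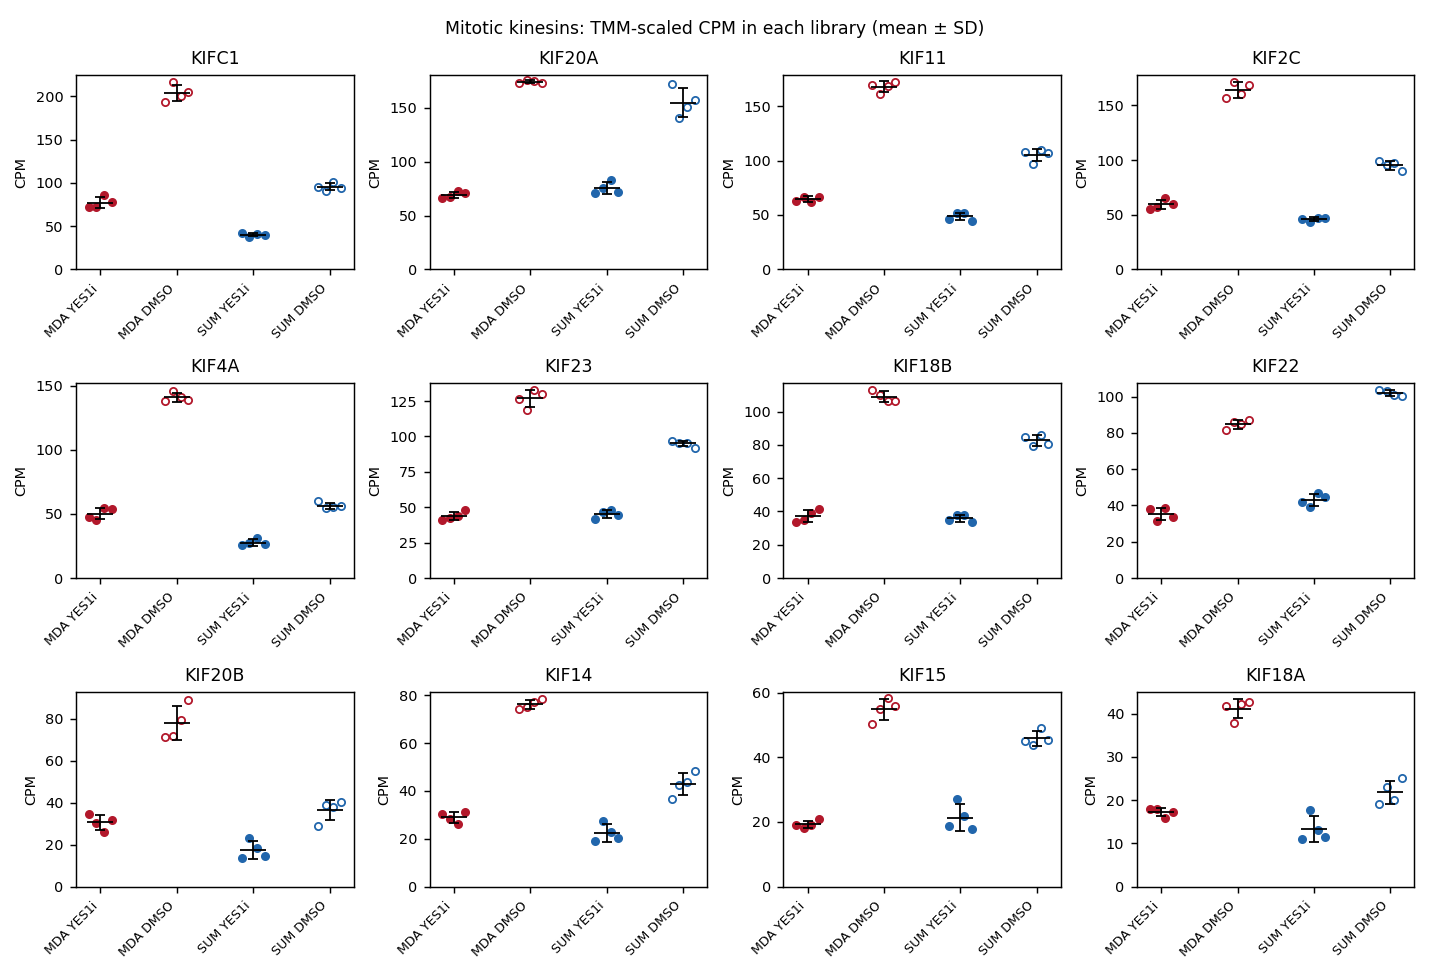
CPM (TMM-scaled, linear axes from 0) of the 12 tested mitotic kinesins in each library, filled points YES1i and open points DMSO, with the mean and SD of the 4 libraries; MDA is MDA-MB-231 and SUM is SUM159. In every panel all 4 YES1i libraries lie below all 4 DMSO libraries of the same line, from KIFC1 at 77.3 against 204 CPM to KIF18A at 17.2 against 41.2 CPM in MDA-MB-231.

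Genes that work with these motors were also mostly lower, in a list chosen with earlier results of these data known. Of 18 mitotic partners (Aurora kinases, spindle assembly, midzone and end-binding genes), 16 fell and 1 rose in MDA-MB-231 and 17 fell and 1 rose in SUM159, with median log2 fold changes of -1.38 and -1.02, where 22.1% of all tested genes were called lower in MDA-MB-231 and 26.5% in SUM159. The gene that rose in both lines was NUMA1, which anchors dynein at spindle poles and is also an abundant interphase nuclear protein, by 0.24 and 0.39 log2. RACGAP1, the partner of KIF23 in centralspindlin, averaged 71.9 ± 4.23 CPM with YES1i and 167 ± 3.48 CPM with DMSO in MDA-MB-231 and 59.3 ± 3.39 CPM with YES1i and 125 ± 3.24 CPM with DMSO in SUM159. The leading falls by the naming rule were HMMR, CDCA8 and NUSAP1 in MDA-MB-231 (-1.60, -1.55 and -1.50 log2) and ANLN, AURKA and AURKB in SUM159 (-1.34, -1.33 and -1.33 log2). PRC1, the midzone bundler that recruits KIF4A, had only 0.919 ± 0.324 CPM with YES1i and 1.48 ± 0.338 CPM with DMSO in MDA-MB-231. It overlaps another annotated gene on its own strand, so its value and any ratio to it are uncertain.

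Cycling markers, also listed with earlier results of these data known, moved with the mitotic kinesins. For the counts that follow, 22.1% of all tested genes were called lower in MDA-MB-231 and 26.5% in SUM159. The 10 G2/M markers all fell in both lines, led by MKI67, CDC20 and BUB1 in MDA-MB-231 (-1.62, -1.61 and -1.50 log2) and by MYBL2, CDC20 and CCNB1 in SUM159 (-1.59, -1.41 and -1.35 log2). Their summed level ran from 1093 to 1171 CPM in MDA-MB-231 YES1i libraries against 3061 to 3171 CPM in MDA-MB-231 DMSO libraries, and from 948 to 1115 CPM in SUM159 YES1i libraries against 2262 to 2379 CPM in SUM159 DMSO libraries. The 12 S phase markers also all fell in both lines, led by RRM2, TYMS and CCNE2 in MDA-MB-231 (-1.93, -1.73 and -1.33 log2) and by RRM2, CDC6 and TYMS in SUM159 (-1.95, -1.59 and -1.56 log2), with summed levels of 782 to 911 CPM in MDA-MB-231 YES1i libraries against 1937 to 1969.7 CPM in MDA-MB-231 DMSO libraries, and of 594 to 671 CPM in SUM159 YES1i libraries against 1634 to 1707 CPM in SUM159 DMSO libraries. In bulk RNA, fewer cells in a cycle stage and less RNA per cell cannot be told apart, and the part of the marker shift in the kinesin falls was not tested.

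Promoter stretches of 5 mitotic and, for contrast, 2 transport kinesins are printed to show letters that were more frequent near the starts of the mitotic genes. Each runs 5′ to 3′ on the gene's strand from 150 bases before to 10 bases after the RefSeq start (GRCh38.p14). Capitals mark the letters TTTGAA, the core of the cell cycle homology element, and CCAAT, the letters bound by NF-Y, each on either strand (TTCAAA and ATTGG on the opposite one). Both are known from promoters of G2/M genes.
KIF11 (chr10:92592980-92593139, plus strand; mitotic, both motifs): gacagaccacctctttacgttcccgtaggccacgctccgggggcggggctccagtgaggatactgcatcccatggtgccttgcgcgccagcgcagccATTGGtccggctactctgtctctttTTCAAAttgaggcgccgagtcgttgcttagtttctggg
KIF14 (chr1:200620742-200620901, minus strand; mitotic, both motifs): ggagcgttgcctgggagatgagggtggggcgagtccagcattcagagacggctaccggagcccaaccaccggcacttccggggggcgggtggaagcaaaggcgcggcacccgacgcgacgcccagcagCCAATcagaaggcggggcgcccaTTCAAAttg
KIF18B (chr17:44947764-44947923, minus strand; mitotic, both motifs): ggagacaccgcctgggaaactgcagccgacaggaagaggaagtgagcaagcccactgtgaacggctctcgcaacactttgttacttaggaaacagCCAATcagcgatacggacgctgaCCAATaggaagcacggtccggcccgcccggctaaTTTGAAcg
KIF4A (chrX:70289954-70290113, plus strand; mitotic, both motifs): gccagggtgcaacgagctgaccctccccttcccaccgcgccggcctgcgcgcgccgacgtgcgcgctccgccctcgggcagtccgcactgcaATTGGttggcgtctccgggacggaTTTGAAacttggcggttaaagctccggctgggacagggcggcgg
KIF2C (chr1:44739687-44739846, plus strand; mitotic, neither motif): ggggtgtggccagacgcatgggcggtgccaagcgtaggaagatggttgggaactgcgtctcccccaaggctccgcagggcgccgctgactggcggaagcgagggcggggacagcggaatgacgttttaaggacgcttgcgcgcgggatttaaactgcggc
KIF5B (chr10:32056416-32056575, minus strand; transport, both motifs, TTTGAA first): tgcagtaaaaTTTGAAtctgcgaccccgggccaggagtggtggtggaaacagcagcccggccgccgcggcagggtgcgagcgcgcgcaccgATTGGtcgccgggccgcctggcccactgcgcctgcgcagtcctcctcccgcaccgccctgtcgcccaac
KIF3B (chr20:32277501-32277660, plus strand; transport, CCAAT motif only): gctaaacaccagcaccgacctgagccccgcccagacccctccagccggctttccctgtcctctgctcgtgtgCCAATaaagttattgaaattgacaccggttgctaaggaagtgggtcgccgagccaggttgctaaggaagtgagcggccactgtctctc

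In RefSeq windows of 300 bases (250 before and 50 after a start), 35 of the 43 members matched, with 44 windows. All 14 mitotic kinesins matched, but only 12 of 17 transport kinesins and 8 of 11 kinesins of cilia and other roles. TTTGAA was present in 10 of 15 mitotic windows (66.7%), in 1 of 17 transport windows (5.88%) and in 0 of 11 windows of the other roles, against 15.2% of all 35116 windows in the table. CCAAT was present in 73.3% of mitotic, 29.4% of transport and 36.4% of other windows, against 34.6% of all windows. Both were present in 60% of mitotic and 5.88% of transport windows, against 5.90% of all windows. In all 9 mitotic windows with both, the CCAAT letters lay before the TTTGAA letters, with 9 to 122 bases between their first letters (median 25) and so no shared letter. The transport gene with both, KIF5B, has TTTGAA first, as its stretch shows. KIF2C holds neither in the stretch printed above and fell with the rest of the mitotic group, and KIF4B holds both and was hardly detected. A match describes letters only, and windows of one gene share sequence.

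The transport kinesins had no common direction. Of 16 tested, 5 rose and 4 fell in MDA-MB-231, where 26.8% of all tested genes were called higher and 22.1% lower. In SUM159, 2 rose and 4 fell, where 25.1% of all genes were called higher and 26.5% lower. The median log2 fold change was 0.00 in MDA-MB-231 and -0.02 in SUM159, against 0.03 and 0.02 over all genes. In SUM159 the count of rises was 4 with upper quartile scaling or DESeq2, and 1 without any one of SUM159 DMSO replicates 1 and 2 and SUM159 YES1i replicate 2. The count of falls there was 1 with upper quartile scaling and 2 without SUM159 DMSO replicate 2.

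Within kinesin-1, the conventional motor that carries vesicles and mitochondria, the ubiquitous heavy chain KIF5B had 265, 279, 244 and 267 CPM in MDA-MB-231 YES1i libraries, against 339, 331, 354 and 358 CPM in MDA-MB-231 DMSO libraries. In SUM159 it had 243, 302, 284 and 261 CPM with YES1i, against 276, 279, 285 and 282 CPM with DMSO. KIF5B fell in MDA-MB-231 without overlap (-0.39 ± 0.06 log2, SE, edgeR adjusted p = 1.2e-06), whereas the SUM159 groups overlapped (-0.04, 95% interval -0.15 to 0.07). The heavy chains known from neurons, KIF5A and KIF5C, were SUM159 transcripts here. KIF5A averaged 6.74 ± 0.684 CPM with YES1i and 5.60 ± 0.247 CPM with DMSO in SUM159 and at most 0.163 CPM in any MDA-MB-231 library. KIF5C averaged 4.59 ± 0.799 CPM with YES1i and 4.52 ± 0.360 CPM with DMSO in SUM159. In MDA-MB-231, KIF5C had no read in any of the 4 YES1i libraries and 0.291, 0.109, 0.143 and 0.0912 CPM in the 4 DMSO libraries. It was called there, at least 4.07-fold lower when the YES1i libraries together are set to 3 counts, but it rests on 13 reads.

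The light chains that join kinesin-1 to cargo changed in different directions. KLC4 averaged 44.8 ± 1.11 CPM with YES1i and 25.6 ± 0.419 CPM with DMSO in MDA-MB-231, and 14.8 ± 1.70 CPM with YES1i and 9.37 ± 1.70 CPM with DMSO in SUM159, a rise in both lines (0.81 and 0.66 log2). KLC2 fell in both, with log2 fold changes of -0.34 ± 0.05 in MDA-MB-231 and -0.46 ± 0.05 in SUM159 (SE). KLC1 fell in SUM159 (-0.21 ± 0.06 log2) and had -0.14 ± 0.06 log2 in MDA-MB-231, with no called difference between the lines (0.07, edgeR adjusted p = 0.60).

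Kinesin-2 pairs KIF3A with KIF3B or KIF3C and binds cargo through KIFAP3. KIF3C had 90.05, 86.2, 88.5 and 90.4 CPM in MDA-MB-231 YES1i libraries, against 58.5, 59.5, 59.1 and 59.1 CPM in MDA-MB-231 DMSO libraries. In SUM159 it had 22.3, 16.1, 17.1 and 20.1 CPM with YES1i, against 21.4, 23.9, 23.7 and 21.3 CPM with DMSO. KIF3C therefore rose in MDA-MB-231 without overlap (0.59 ± 0.07 log2, edgeR adjusted p = 2.5e-08) and fell in SUM159 with overlapping libraries (-0.26 ± 0.08, adjusted p = 0.0073). The SUM159 fall was not called with upper quartile scaling (-0.14, adjusted p = 0.14). KIF3B averaged 143 ± 3.32 CPM with YES1i and 130.4 ± 3.01 CPM with DMSO in MDA-MB-231, a rise of 0.14 ± 0.05 log2, and 61.0 ± 1.29 CPM with YES1i and 62.6 ± 1.58 CPM with DMSO in SUM159. The KIF3B rise in MDA-MB-231 was not called without a low-count filter (0.11, edgeR adjusted p = 0.26) or with the replicate block (0.14, adjusted p = 0.053). KIF3A had 0.06 ± 0.09 log2 in MDA-MB-231 and fell in SUM159 (-0.23 ± 0.09), a call lost with upper quartile scaling (-0.11, adjusted p = 0.33) with DESeq2 (-0.18, adjusted p = 0.10) and without any one of SUM159 DMSO replicates 1 and 2 and SUM159 YES1i replicates 1, 3 and 4 (edgeR adjusted p of 0.055 to 0.16). KIFAP3 rose in MDA-MB-231 (0.19 ± 0.07 log2) and fell in SUM159 (-0.23 ± 0.07), as KIF3C did.

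The kinesin-3 motors carry synaptic vesicle precursors, mitochondria and endosomes. KIF13A, which moves mannose-6-phosphate receptor vesicles and recycling endosomes, had 140.2, 147, 146 and 135 CPM in MDA-MB-231 YES1i libraries, against 126, 127, 129.7 and 121 CPM in MDA-MB-231 DMSO libraries, and at most 0.119 CPM in any SUM159 library. The rise in MDA-MB-231 was 0.17 ± 0.06 log2, a call lost without a low-count filter (edgeR adjusted p = 0.10) and without any one of MDA-MB-231 DMSO replicate 4 (0.068) and MDA-MB-231 YES1i replicates 2 (0.056) and 3 (0.053). Its close relative KIF13B, which carries membrane cargo to the leading edge, had 67.7, 64.0, 63.3 and 62.6 CPM in MDA-MB-231 YES1i libraries, against 44.5, 48.1, 47.0 and 44.9 CPM in MDA-MB-231 DMSO libraries. KIF13B rose there without overlap (0.48 ± 0.06 log2) and averaged 20.8 ± 1.42 CPM with YES1i and 18.9 ± 1.05 CPM with DMSO in SUM159 (0.14 ± 0.07 log2, not called, but called with the scaling factors of DESeq2). KIF1B, a mitochondrial and vesicle motor, averaged 93.3 ± 3.69 CPM with YES1i and 97.0 ± 1.10 CPM with DMSO in MDA-MB-231, and 128 ± 5.20 CPM with YES1i and 162 ± 5.41 CPM with DMSO in SUM159, where it fell without overlap (-0.34 ± 0.05 log2). KIF1C, a fast vesicle motor, fell in MDA-MB-231 (-0.23 ± 0.05 log2; 272 ± 11.4 CPM with YES1i and 319 ± 9.40 CPM with DMSO) and had -0.03 log2 in SUM159 (95% interval -0.14 to 0.07). KIF16B, an early endosome motor, averaged 20.4 ± 2.20 CPM with YES1i and 20.3 ± 1.51 CPM with DMSO in SUM159 and was not called in either line.

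The remaining transport motors were mixed as well. KIF21A, a cortical and axonal motor, had 13.01, 13.8, 11.6 and 12.5 CPM in MDA-MB-231 YES1i libraries, against 16.9, 14.98, 16.4 and 15.9 CPM in MDA-MB-231 DMSO libraries. In SUM159 it had 110.1, 139.6, 118 and 113 CPM with YES1i, against 103, 109, 108 and 112 CPM with DMSO. KIF21A fell in MDA-MB-231 without overlap (-0.34 ± 0.08 log2), and in SUM159 it had 0.16 ± 0.06 log2 with overlap. The SUM159 value was called in the joint fit but rested on YES1i replicate 2, without which it was 0.076 (edgeR adjusted p = 0.28), and the call was also lost with each line fitted alone (adjusted p = 0.078), with the replicate block (0.084) and without any one of SUM159 DMSO replicates 1, 2 and 3 (0.12, 0.058 and 0.056). KIF17, a homodimeric kinesin-2 that carries dendritic and ciliary cargo in mouse, averaged 8.08 ± 1.41 CPM with YES1i and 3.64 ± 0.642 CPM with DMSO in SUM159, where it rose 2.19-fold without overlap, and 1.31 ± 0.0974 CPM with YES1i and 0.949 ± 0.180 CPM with DMSO in MDA-MB-231 (0.46 ± 0.24 log2, not called). KIFC2, a minus-end motor described in neurons, averaged 39.2 ± 4.62 CPM with YES1i and 21.7 ± 1.46 CPM with DMSO in MDA-MB-231, where it rose 1.81-fold, and 37.8 ± 6.80 CPM with YES1i and 31.4 ± 6.87 CPM with DMSO in SUM159. KIFC3, a minus-end motor at epithelial junctions, had 187, 181, 199 and 183 CPM in MDA-MB-231 YES1i libraries, against 202, 219.8, 213 and 225 CPM in MDA-MB-231 DMSO libraries. These did not overlap, but the change of -0.20 ± 0.14 log2 was not called in the joint fit (edgeR adjusted p = 0.25) and was called with each line fitted alone (-0.24, adjusted p = 1.3e-05). KIFC3 averaged 95.1 ± 16.9 CPM with YES1i and 127 ± 25.1 CPM with DMSO in SUM159, a fall (-0.42 ± 0.14 log2) with overlapping libraries, called in the joint fit and lost with each line fitted alone (edgeR adjusted p = 0.076) and without any one of SUM159 DMSO replicates 2 and 3 and SUM159 YES1i replicate 2 (0.071, 0.077 and 0.060). KIF21B stayed at 0.332 to 2.33 CPM in all libraries and was not called.

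**Figure D3:**
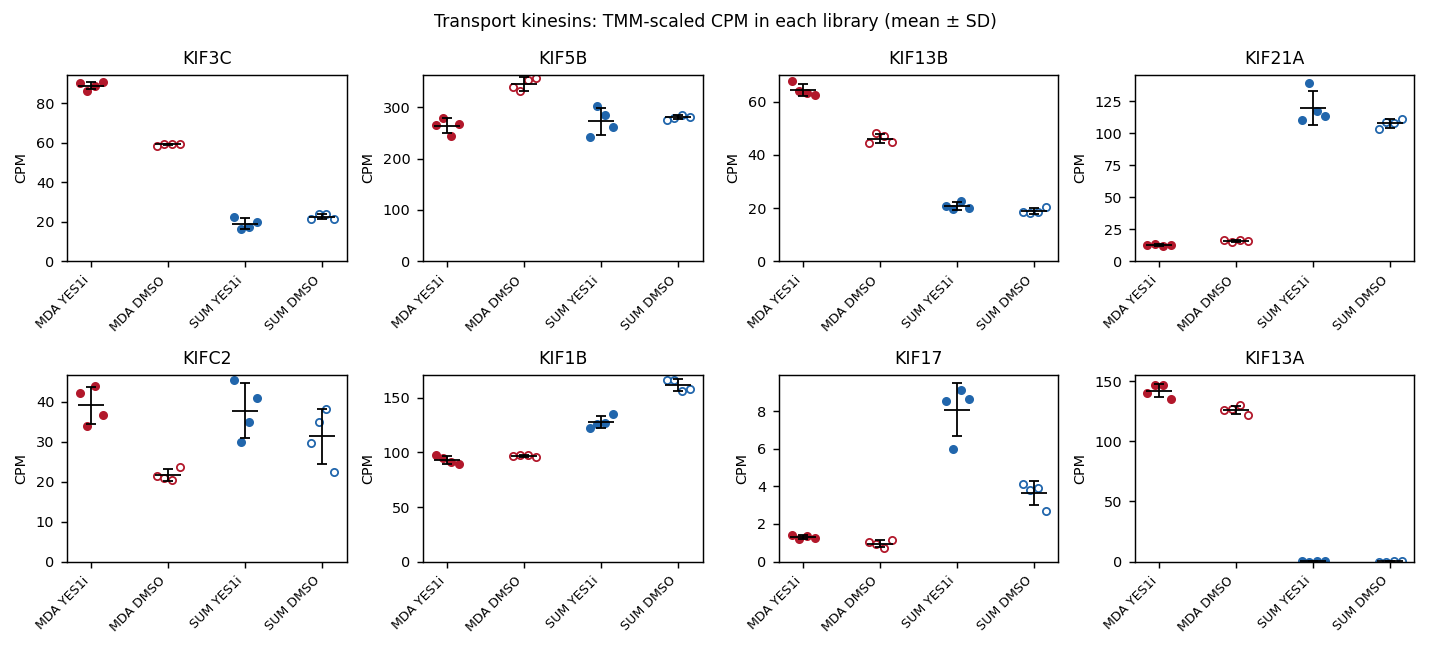
CPM (TMM-scaled, linear axes from 0) of 8 transport kinesins in each library, filled points YES1i and open points DMSO, with the mean and SD of the 4 libraries; MDA is MDA-MB-231 and SUM is SUM159. KIF3C and KIF13B are higher with YES1i in MDA-MB-231 (88.8 against 59.1 CPM and 64.4 against 46.1 CPM), KIF5B is lower there (264 against 345 CPM), KIF1B is lower in SUM159 (128 against 162 CPM), and KIF13A is near 0 in SUM159.

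The lists of transport partners and dynein genes were chosen with earlier results of these data known. Of 21 genes that load or steer transport kinesins, 15 rose and 1 fell in MDA-MB-231 (median 0.33 log2). There 26.8% of all tested genes were called higher and 22.1% lower. In SUM159, 8 rose and 4 fell (median 0.18 log2), where 25.1% were called higher and 26.5% lower. FYCO1, which links late endosomes to kinesin-1, averaged 113 ± 1.67 CPM with YES1i and 62.1 ± 1.73 CPM with DMSO in MDA-MB-231, and 126 ± 7.64 CPM with YES1i and 106 ± 2.15 CPM with DMSO in SUM159. MAPK8IP3, a kinesin-1 and dynein adaptor, rose in both lines, by 0.64 ± 0.07 and 0.72 ± 0.07 log2 (SE). The opposing motor, cytoplasmic dynein with dynactin, had 5 of 22 genes higher and 4 lower in MDA-MB-231 and 3 higher and 10 lower in SUM159, against the same shares of all genes (26.8% higher and 22.1% lower in MDA-MB-231, 25.1% higher and 26.5% lower in SUM159). By the naming rule its leading changes were DYNLT3, DCTN3 and NDE1 in MDA-MB-231 (0.39, -0.37 and -0.33 log2) and ACTR1A, NDE1 and DCTN4 in SUM159 (-0.72, -0.44 and 0.33 log2).

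Of the 7 tested kinesins of cilia and other roles, 3 rose and 2 fell in MDA-MB-231, where 26.8% of all tested genes were called higher and 22.1% lower, and 2 rose and 2 fell in SUM159, where 25.1% were called higher and 26.5% lower. KIF24, which holds back cilium growth at the mother centriole, had 13.3, 10.95, 12.1 and 11.2 CPM in MDA-MB-231 YES1i libraries, against 23.9, 19.9, 21.4 and 23.7 CPM in MDA-MB-231 DMSO libraries. In SUM159 it had 7.26, 7.53, 8.62 and 6.84 CPM with YES1i, against 19.6, 16.3, 16.2 and 18.1 CPM with DMSO. It fell without overlap in both lines, 1.87-fold in MDA-MB-231 and 2.33-fold in SUM159, so its SUM159 fall was within the range of the mitotic group. KIF2A, a depolymerase used at spindle poles and in interphase, averaged 43.6 ± 0.573 CPM with YES1i and 57.6 ± 3.86 CPM with DMSO in MDA-MB-231, and 61.2 ± 6.73 CPM with YES1i and 79.3 ± 2.39 CPM with DMSO in SUM159. KIF2A fell in both lines (log2 fold changes of -0.40 ± 0.07 in MDA-MB-231 and -0.37 ± 0.06 in SUM159, SE), and counting it as mitotic gives 13 of 13 lower in both lines.

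KIF7, the ciliary kinesin of Hedgehog signalling, had 18.5, 18.7, 18.8 and 19.1 CPM in MDA-MB-231 YES1i libraries, against 9.79, 9.15, 12.1 and 11.1 CPM in MDA-MB-231 DMSO libraries. In SUM159 it averaged 36.4 ± 7.02 CPM with YES1i and 26.7 ± 3.47 CPM with DMSO, and it rose in both (0.83 ± 0.12 and 0.45 ± 0.11 log2), although the SUM159 libraries overlapped. KIF26B, a motor-inactive relative tied to cell adhesion and polarity, averaged 8.21 ± 1.01 CPM with YES1i and 4.20 ± 0.294 CPM with DMSO in MDA-MB-231, and 1.15 ± 0.253 CPM with YES1i and 0.544 ± 0.181 CPM with DMSO in SUM159, a rise in both without overlap. In SUM159 the gap was narrow, with 0.822 CPM in the lowest YES1i library and 0.801 CPM in the highest DMSO library. These SUM159 values rest on 19 to 26 reads per library with YES1i and 6 to 28 with DMSO. KIF27, a relative of KIF7, rose in MDA-MB-231 (0.30 ± 0.12 log2, edgeR adjusted p = 0.031; lost without a low-count filter, adjusted p = 0.091, and without any one of MDA-MB-231 DMSO replicates 1 and 2 and MDA-MB-231 YES1i replicates 1 and 4, adjusted p of 0.061 to 0.11). KIF9 and KIF25 were not called in either line. KIF1BP, the kinesin-binding protein, fell in both lines, to 64.8 ± 4.70 CPM with YES1i against 86.7 ± 3.70 CPM with DMSO in MDA-MB-231 and to 27.8 ± 1.23 CPM with YES1i against 44.0 ± 2.22 CPM with DMSO in SUM159.

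**Figure D4:**
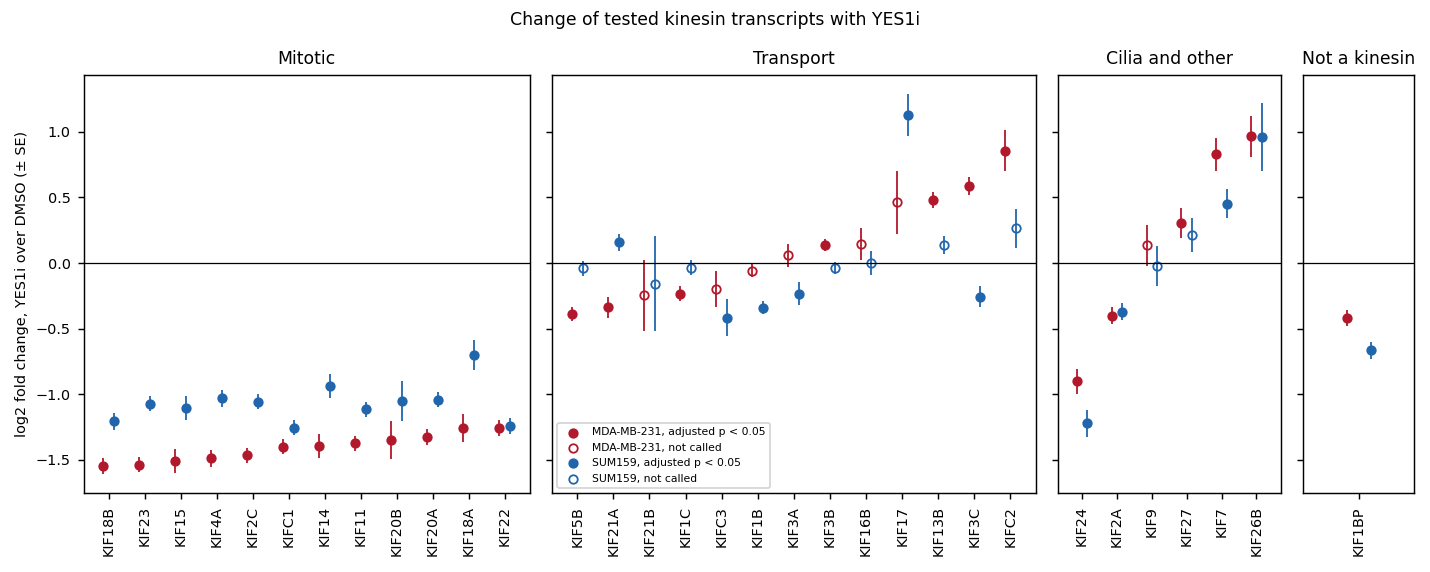
Log2 fold change of YES1i over DMSO (edgeR, ± SE) for tested members by role, red MDA-MB-231 and blue SUM159, filled where the adjusted p is under 0.05; KIF5A, KIF5C, KIF13A and KIF25, near 0 CPM in one line, are left out. All 12 mitotic members lie between -1.55 and -0.70, whereas transport members lie on both sides of 0, from -0.42 (KIFC3 in SUM159) to 1.13 (KIF17 in SUM159).

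The response was compared between the lines by testing the difference of the YES1i changes, MDA-MB-231 minus SUM159. It was called for 18 of 36 tested members, 6 higher and 12 lower, against 31.1% of all tested genes (19.1% higher and 12.1% lower). For 9 of the 12 mitotic kinesins the fall was deeper in MDA-MB-231, by a median of -0.37 log2 over the 12 against 0.04 over all genes. The 3 without a called difference were KIF20B (-0.30, edgeR adjusted p = 0.31), KIF22 (-0.01, 95% interval -0.19 to 0.16) and KIFC1 (-0.14, 95% interval -0.31 to 0.02). KIF20B was called without a low-count filter (-0.33, edgeR adjusted p = 0.030) and KIFC1 with upper quartile scaling (-0.26, adjusted p = 0.013). KIF23 differed by -0.46 ± 0.08 log2 (adjusted p = 5.6e-05) and KIF18A by -0.56 ± 0.16 (adjusted p = 0.0073). The KIF15 difference, -0.40, was -0.26 without SUM159 YES1i replicate 2 and no longer called (edgeR adjusted p = 0.052).

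Outside the mitotic group, KIF3C had a difference of 0.84 ± 0.10 log2 (edgeR adjusted p = 2.2e-07), and KIF21A had -0.49 ± 0.10 (adjusted p = 0.00044). KIF13B, KIF1B, KIF3B, KIFC2 and KIF1BP also had a more positive or less negative change in MDA-MB-231, by 0.17 to 0.59 log2, and KIF5B and KIF5C a more negative one. The count of higher differences was 3 with RLE scaling, where KIF3B, KIFC2 and KIF1BP were lost, and 1 with upper quartile scaling, where KIF3C was left, in place of 6, and 3 without any one of MDA-MB-231 DMSO replicates 2, 3 and 4, MDA-MB-231 YES1i replicates 3 and 4 and SUM159 YES1i replicate 4. Without single libraries in turn the edgeR adjusted p of KIF3B ran from 0.051 to 0.10, so its call was lost each time, and those of KIFC2 and KIF1BP reached 0.096 and 0.089. None of the 7 tested kinesins of cilia and other roles had a called difference with all libraries, but KIF7 had one without SUM159 DMSO replicate 1 (0.47, adjusted p = 0.024) or SUM159 YES1i replicate 1 (0.49, adjusted p = 0.0091), and KIF24 without SUM159 YES1i replicate 3 (0.38, adjusted p = 0.048). The KIF1C difference was not called in the joint fit but was with RLE scaling (-0.25, edgeR adjusted p = 0.013) and upper quartile scaling (-0.31, 0.0015). It was also called with DESeq2 (-0.25, adjusted p = 0.0090), other filters (edgeR adjusted p of 0.039 to 0.043) and without some single libraries. KIF17 had one with upper quartile scaling (-0.78, edgeR adjusted p = 0.043). Without SUM159 YES1i replicate 2, KIF17 (-0.79, 0.033) and KIF3A (0.35, 0.028) had one. In all, 17 members were called in the same direction in both lines. These held all 12 tested mitotic kinesins and 0 of the 16 tested transport kinesins. In opposite directions were 2, KIF3C and KIF21A, with the SUM159 calls of both limited as given above (KIF3C with upper quartile scaling, KIF21A without single libraries). The share of all tested genes called in both lines was not counted, so the count of 17 has no matching background. Taken singly, the lines had calls in either direction for 48.9% (MDA-MB-231) and 51.6% (SUM159) of all tested genes. A difference of 2-fold or more was called for 0 members higher and 1 lower, KIF5C, against 3.07% and 3.17% of all genes. The comparison of changes shares no library between lines.

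The lines also differed at baseline. In DMSO, 25 of 36 tested members were higher in MDA-MB-231 than in SUM159 and 11 were lower, so all 36 were called, against 76.6% of all tested genes (37.8% higher and 38.7% lower). At 2-fold or more the counts were 11 higher and 6 lower, against 18.9% and 19.7% of all genes. Of the mitotic kinesins 11 were higher in MDA-MB-231, from KIF20A (0.17 log2) to KIF4A (1.32 log2), and KIF22 was lower (-0.27 log2). Among transport motors KIF13A was present in MDA-MB-231 and close to absent in SUM159, whereas KIF21A was lower in MDA-MB-231 by -2.75 ± 0.07 log2 (SE), KIF16B by -1.69 ± 0.11 and KIF17 by -1.95 ± 0.21.

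Ratios within a library compare motors with their partners or relatives without a scaling factor. The pairs were chosen with earlier results of these data known, so their p-values are no independent support. KIF2A, KIF4A, KIF15, KIF18A and KIF20A each overlap a gene with at least 10% of their count, so ratios with them may mix genes. For 9 gene pairs in each line, 18 tests in all, an exact two-sided permutation test over the 8 libraries of a line (70 regroupings) can give no p below 0.0286. That smallest p was reached by 6 of the 18, each with a Benjamini-Hochberg adjusted p of 0.0857, so none passed 0.05 after adjustment. The log2 ratio of KIF2C to KIF2A, the mitotic against the general depolymerase, averaged 0.44 ± 0.0984 with YES1i and 1.51 ± 0.159 with DMSO in MDA-MB-231, and -0.41 ± 0.213 with YES1i and 0.26 ± 0.0985 with DMSO in SUM159 (SD, n = 4 each; exact permutation p = 0.0286 in each line). The ratio of KIF18A to KIF18B was higher with YES1i in both lines, by 0.30 in MDA-MB-231 and 0.47 in SUM159, and its groups did not overlap. KIF23 to RACGAP1, the 2 subunits of centralspindlin, differed by -0.32 in MDA-MB-231 and 0.00 in SUM159, and KIF20A to AURKB by 0.09 in MDA-MB-231 and by 0.29, with overlapping groups, in SUM159 (exact permutation p = 0.0571). The ratios of KIF11 to KIF15, KIF11 to KIFC1, KIF4A to PRC1, KIF3A to KIF3B and KIF5B to KLC1 overlapped between treatments in both lines.

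The labels do not say whether the libraries kept strand, and 24 of the 43 members overlap a gene on the opposite strand. For 8 (KIF15, KIF18A, KIF20A, KIF24, KIF2A, KIF4A, KIF7 and KIF9) an overlapping gene on either strand had at least 10% of the member's count. These values may therefore mix genes. TMEM42, which overlaps KIF15, and IPO11, which overlaps KIF2A, lie on the same strand as the member, so strand would not tell them apart. Without these 8, the mitotic count was 8 of 8 lower in both lines. Of all tested genes, 22.1% were called lower in MDA-MB-231 and 26.5% in SUM159. Of the 3 tested kinesins of cilia and other roles that remained, 0 were lower in either line.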

How the data were processed

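Per the labels' protocols, poly-T beads purified the mRNA and random hexamers primed its cDNA. The authors deposited raw read counts, 1 column per library in 1 gene table. HISAT2 2.0.5 and featureCounts 1.5.0-p3 appear in the submitters' processing notes, as does hg38. How reads from overlapping genes, either strand or several loci were counted is not stated in these sources.

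The counts were tested as deposited in edgeR 4.0.16 (R 4.3.3): filterByExpr on the 4 groups, TMM scaling, and the robust quasi-likelihood test in 1 fit of all 16 libraries. The fit was also run on counts simulated with the spread between these libraries, a check that does not cover the spread between cultures. Standard errors were derived from the F statistic. TPM used the deposited gene lengths. A library without reads of a gene is limited to 3 counts, for counting error only.

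The members, roles, lists and pairs were chosen with earlier results of these data known. Genes named were all tested mitotic kinesins, other members called or averaging 5 CPM or more, the 3 called members of each partner or marker list with the largest change in each line at 5 CPM or more, and CENPE, KIFAP3, KLC1, KLC2, PRC1 and RACGAP1. Alternatives covered scaling (RLE, upper quartile), DESeq2 1.42.0, limma-voom 3.58.1, filters, thresholds, separate lines, the replicate block, each library left out, and, chosen after the data were seen, members without overlapping genes. A planned search of protein sequences was not run.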

Additional observations from a re-analysis of the deposited data

Results flagged for a closer look

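The YES1i change, MDA-MB-231 minus SUM159 on the log2 scale, was called different between the lines by edgeR for 18 members. For the mitotic kinesins the differences were -0.26 for KIF11, -0.46 for KIF14, -0.40 for KIF15, -0.56 for KIF18A, -0.34 for KIF18B, -0.29 for KIF20A, -0.46 for KIF23, -0.41 for KIF2C and -0.46 for KIF4A. For the transport kinesins they were 0.34 for KIF13B, 0.28 for KIF1B, -0.49 for KIF21A, 0.17 for KIF3B, 0.84 for KIF3C, -0.35 for KIF5B, -4.76 for KIF5C and 0.59 for KIFC2, and for the kinesin-binding protein KIF1BP 0.25. The KIF15 difference was -0.26 without SUM159 YES1i replicate 2 and then not called (edgeR adjusted p = 0.052). The KIF5C value depends on the prior count, since the MDA-MB-231 YES1i libraries had no read.

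In 2 of 132 groups of 4 libraries examined, 1 library lay far from the other 3; chance marks about 1 in 20. KIF2A was at 71.2 CPM in SUM159 YES1i replicate 2 and at 56.9, 58.1 and 58.5 CPM in the other 3 libraries of that group. KIF5A was at 0.0480 CPM in MDA-MB-231 YES1i replicate 3, which is 1 read, and had 0 reads in the other 3.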

How the results depend on the processing

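The count of 12 mitotic kinesins lower in each line held under the other scalings, tests, filters and the stricter p tried and without each library; with a 2-fold minimum it was 12 in MDA-MB-231 and 10 in SUM159, and no called value changed sign. Uncalled values near 0 did, among them KIF1C and KIF5B in SUM159 with upper quartile scaling and the KIF23 to RACGAP1 ratio in SUM159, which ran from -0.034 to 0.083 without 1 library at a time. The smaller counts moved, and the cause was not tested. Transport kinesins higher in SUM159 numbered 4 with upper quartile scaling, 4 with DESeq2, and 1 with each line fitted alone, at an adjusted p under 0.01, or at 2-fold; those lower numbered 1 with upper quartile scaling, 2 with each line fitted alone or under 0.01, and 0 at 2-fold. Transport kinesins higher in MDA-MB-231 numbered 3 without a low-count filter or under 0.01 and 0 at 2-fold, and 1 was lower at 2-fold. Of kinesins of cilia and other roles, at 2-fold 0 were higher in either line, 0 lower in MDA-MB-231 and 1 lower in SUM159; with members without overlapping genes, chosen after seeing the data, 0 were lower in either line and 1 higher in SUM159, as fewer were counted. Higher differences between lines numbered 3 with RLE scaling, 1 with upper quartile scaling, 3 under 0.01 and 0 at 2-fold, where 1 was lower. In DMSO, 11 members were at least 2-fold higher in MDA-MB-231 and 6 lower.

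The replicate numbers did not pair the samples (correlations of same-numbered libraries from -0.107 to 0.0116). With the replicate block, transport kinesins higher in SUM159 numbered 1 and higher differences between lines 3. The paired sign-flip test with the block cannot give an exact p below 0.125, so the ratio changes of KIF23 to RACGAP1 (-0.32), KIF20A to AURKB (0.092), KIF2C to KIF2A (-1.07 and -0.67 in SUM159) and KIF18A to KIF18B (0.30 and 0.47 in SUM159) all had p = 0.125, too few pairs for a call.

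Without 1 library at a time, transport kinesins in SUM159 numbered 1 to 2 higher and 2 to 4 lower, and higher differences between lines 3 to 6. In MDA-MB-231 the log2 ratio changes ran from 0.092 to 0.18 for KIF11 to KIF15, -0.99 to -0.62 for KIF4A to PRC1, -0.36 to -0.29 for KIF23 to RACGAP1, 0.077 to 0.11 for KIF20A to AURKB, 0.23 to 0.37 for KIF18A to KIF18B and -0.32 to -0.17 for KIF5B to KLC1. In SUM159 they ran from 0.080 to 0.18 for KIF11 to KIFC1, 0.35 to 0.55 for KIF18A to KIF18B and 0.13 to 0.22 for KIF5B to KLC1.

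Over all genes, 48.7% of SUM159 calls were higher, against 55.0% with RLE scaling or DESeq2 and 63.4% with upper quartile scaling, which moved the median log2 fold change there to 0.14. Of the calls between lines 61.3% were higher, against 52.7% with RLE scaling or DESeq2 and 43.9% with upper quartile scaling. The protein sequence search was not run. Members under 1 CPM are limited by depth.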
